A study of Mus musculus with 15 samples.

Results

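Hippocampal RNA of DM mice, the double mutants of the study, was compared with that of WT mice over all expressed genes. The comparison took the 3 DM and the 3 WT libraries of batch 1, 6 of the 15 libraries of the series, and covered 16171 of the 55471 genes of the count table, those above 1 CPM (counts scaled to library size) in at least 3 of the 15 libraries. Of these, 13911 were protein-coding. The study set mice with mutant *App*, with *APOE4* and with both against WT mice, to ask how the pair of risk genes of Alzheimer's disease acts together on the hippocampus. DM mice were AppNL-G-F/NL-G-F and also Apoe4+/wt, which means mutant *App* with a humanized Aβ stretch on both alleles of the mouse locus and a single knocked-in allele of human *APOE4*. They came from a cross of both knock-in lines, so that each gene was driven by its own mouse locus and not by a transgene. WT mice had neither change. All of these mice were females 3 months old, and whole hippocampi were used. The APP-TKI libraries of batch 1, with AppNL-G-F/NL-G-F alone, shared the model that estimated the spread and are not described. The labels number the libraries within each group without saying more of the animals, so that a p-value measures the spread between these libraries.

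APP is cut by β- and γ-secretases to Aβ, which builds up in plaques, and microglia that gather at plaques switch on genes of lipid handling, lysosomes and antigen presentation. ApoE carries lipid between astrocytes, microglia, vessels and neurons, and the ApoE4 form is the main genetic risk factor of the late-onset disease. The hippocampus holds pyramidal and granule neurons and glia, and lies against a ventricle lined by ciliated ependymal cells and against meninges rich in fibroblasts, so that a dissected hippocampus carries RNA of these neighbours as well. In RNA of whole tissue, more cells of a type and more RNA per cell cannot be told apart.

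Total counts were 32754717 to 36790373 per WT library and 35398148 to 38427086 per DM library. Replicate 1 of each group stood apart. Noncoding transcripts took 3.09% of the counts in WT replicate 1 and 3.07% in DM replicate 1, against 2.31% to 2.48% in the other 4 libraries. APP-TKI replicates 1 and 2, with 2.86% and 2.84%, were like them. The first principal component of the 9 libraries (37.8% of the variance) set these 4 libraries apart from the other 5, while all 3 DM libraries lay above all 3 WT libraries on the second (15.7%). DM and WT libraries of the same number also deviated from their group means together, with correlations across genes of 0.54, 0.26 and 0.38 for replicates 1, 2 and 3. Correlations were also positive between WT replicate 3 and DM replicate 2 (0.15) and between WT replicate 2 and DM replicate 3 (0.19).

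Differences between DM and WT mice were mostly small, and those seen were more often higher than lower levels in DM mice. By edgeR's quasi-likelihood test, 2 genes passed a Benjamini-Hochberg adjusted p under 0.1 (0.0124% of the genes tested), *Mid1*, which fell, and *Col8a2*, which rose. A higher level at an unadjusted p under 0.05 was seen in 596 genes (3.69% of those tested) and a lower level in 140 (0.866%). Together these are 736 genes, and a test with no difference anywhere gives 808.6. All 3 DM libraries lay above all 3 WT libraries for 1179 genes (7.29%) and below them for 508 (3.14%). At any p, 54.9% of the genes had a higher level, and counts of list members with a higher level are to be read beside this share. The median log2 fold change was 0.01, and 97.0% of the genes had an absolute log2 fold change under 0.5, where the standard error was 0.10 for the median gene. An absolute log2 fold change over 1 was reached by 107 genes with a higher and 9 with a lower level. The lean to higher levels was stronger in genes of lower level. Of the 2765 genes with a mean of 3 to 10 CPM, 5.21% were higher and 0.796% lower at an unadjusted p under 0.05. Of the 2324 genes over 100 CPM, these shares were 1.20% and 0.818%. Of the 681 genes under 1 CPM, 11% were higher and 0.734% lower. Such a gene can pass the filter through its 3 DM libraries alone, so nothing is read from these 681. The lean also depended on the scaling. Of the genes with an unadjusted p under 0.05, 81.0% were higher after the upper quartile scaling used here, 70.9% after TMM and 67.4% after median-of-ratios scaling.

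The number of DEGs depended on the model. With the replicate number as a block, 11 genes passed (0.068%), of which 7 were higher and 4 lower. The added ones were *Col6a4*, *Ptgds*, *Atf4*, *Pltp*, *Bok*, *Anxa2*, *Ogn*, *Cp* and *Vwa5b1*. With the block in a model of the 6 DM and WT libraries alone, which was chosen after seeing the data, 310 genes passed with a higher level (1.92%) and 112 with a lower level (0.693%). Without the block, these 6 libraries alone gave 30 DEGs, and the batch without the 4 libraries high in noncoding RNA gave 131. Leaving out those 4 libraries was also chosen after seeing the data. It kept replicates 2 and 3 of DM and WT and replicate 3 of APP-TKI, so that the spread rests on few libraries wherever this setting is given. All of these counts are from edgeR's quasi-likelihood test, and Mid1 and Col8a2 were among the DEGs in each.

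**Figure D1:**
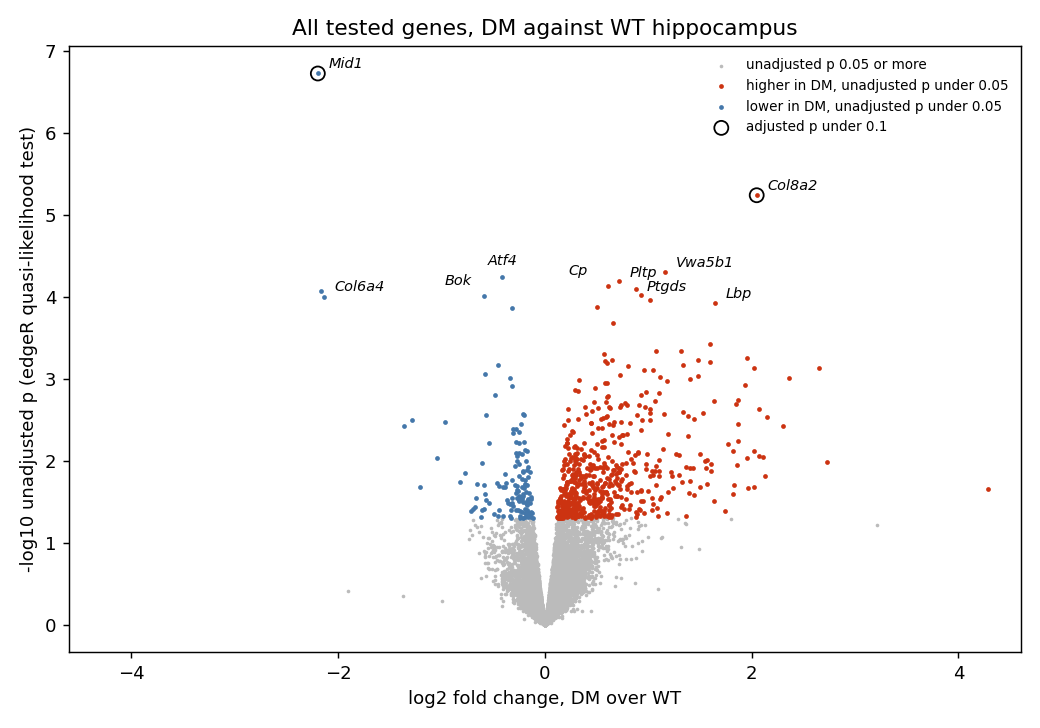
Each point is 1 of the 16171 tested genes, with the log2 fold change of DM over WT on the horizontal axis and the −log10 of the unadjusted p of edgeR's quasi-likelihood test on the vertical axis. Red points (596) are higher and blue points (140) lower in DM at an unadjusted p under 0.05, and the circles mark the 2 genes with an adjusted p under 0.1.

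*Mid1* encodes a ubiquitin ligase bound to microtubules and lies at chrX:169685199-170005736 of GRCm38. Its level was 18.0, 21.8 and 11.5 CPM in the WT libraries and 3.94, 3.91 and 3.33 CPM in the DM libraries, from 419 to 712 and from 117 to 153 counts. The groups were far apart, and the WT libraries differed more among themselves than the DM libraries did. The log2 fold change was -2.19 (standard error 0.20), and the adjusted p of edgeR's quasi-likelihood test was 0.00304. It passed in all of the alternative models and without any single library of batch 1. The noncoding *G530011O06Rik*, which overlaps *Mid1*, showed a log2 fold change of -2.17 (standard error 0.37), and reads of an overlapping pair cannot be told apart if they were counted without strand. Next to them, *Gm21887* showed a log2 fold change of -1.36 (standard error 0.38) with overlapping libraries, while *Arhgap6*, on the other side, had 0.72 (standard error 0.25) with all DM libraries above all WT libraries. Neither passed when adjusted over all genes (adjusted p = 0.559 and 0.835 from edgeR). Of the 8 other tested genes within 2 Mb of *Mid1*, these 3 had an unadjusted p under 0.05.

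*Col8a2* encodes a short-chain collagen of basement membranes, such as that under the corneal endothelium, and lies at chr4:126286793-126314330. It had 0.811, 0.644 and 0.551 CPM in the WT libraries and 2.47, 2.92 and 2.93 CPM in the DM libraries, from 20 to 28 and from 96 to 106 counts. All DM libraries were well above all WT libraries. This was a log2 fold change of 2.05 (standard error 0.26), and the quasi-likelihood test of edgeR gave an adjusted p of 0.0465. It no longer passed without WT replicate 2 (adjusted p = 0.204), WT replicate 3 (0.405), APP-TKI replicate 1 (0.122) or either of DM replicates 2 (0.346) and 3 (0.285), nor with all 15 libraries in the model (0.895). Of the 50 other tested genes within 2 Mb, only *Dnali1*, a dynein light chain gene of cilia, had an unadjusted p under 0.05, at a log2 difference of 1.15 (standard error 0.30).

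Of protein-coding genes with a mean over 1 CPM, 969 had all DM libraries above all WT libraries and 446 had them below. The 15 with the smallest p in each direction are described. *Ptgds*, the prostaglandin D synthase made by meningeal and choroid plexus cells and by oligodendrocytes, had 162, 255 and 198 CPM in WT and 372, 346 and 416 CPM in DM libraries, a log2 fold change of 0.88 (standard error 0.15). *Pltp*, which transfers phospholipid between lipoproteins, had 14.98, 17.3 and 16.1 CPM in WT and 29.6, 23.8 and 26.1 CPM in DM libraries (0.72, standard error 0.12). *Cp*, the copper-binding ferroxidase ceruloplasmin, had 7.30, 8.13 and 8.76 CPM in WT and 12.7, 11.8 and 12.4 CPM in DM libraries (0.61, standard error 0.10). That the DM libraries lay clear of the WT range follows from how these genes were chosen. Log2 fold changes were 1.01 for *Aebp1*, whose secreted product binds collagen, 1.07 for *Ogn*, the proteoglycan osteoglycin, and 1.65 for *Lbp*, which binds bacterial lipopolysaccharide (standard errors 0.18, 0.22 and 0.29). *Anxa2*, a calcium-dependent membrane protein that binds plasminogen at the cell surface, had 3.13, 4.14 and 3.64 CPM in WT and 6.57, 7.0 and 7.26 CPM in DM libraries, a log2 fold change of 0.93 (standard error 0.16).

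*Podxl*, a sialomucin of the endothelial surface, showed a log2 fold change of 0.51 (standard error 0.09), and *Pecam1*, an adhesion molecule between endothelial cells, of 0.65 (standard error 0.14). *Cavin1*, which coats caveolae, had 0.66 (standard error 0.12), and *Ctsh*, a lysosomal cathepsin, had 0.57 (standard error 0.12). *Rgs22* had 0.637, 0.583 and 0.799 CPM in WT and 1.57, 1.63 and 1.85 CPM in DM libraries. *Vwa5b1* and the scaffold gene *Frmpd2* had log2 fold changes of 1.16 and 1.60 (standard errors 0.19 and 0.32). Log2 fold changes of the 15 genes ran from 0.51 to 2.05. Apart from *Col8a2* their adjusted p in edgeR's quasi-likelihood test was 0.146 or higher, and none of them passed.

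The 15 genes with a lower level had smaller changes, apart from *Mid1* and *Col6a4*. *Col6a4*, a chain of type VI collagen, had 7.13, 5.55 and 3.58 CPM in WT and 1.78, 0.827 and 1.05 CPM in DM libraries, a log2 fold change of -2.14 (standard error 0.37). The adjusted p of edgeR's test was 0.146, and 0.00482 with the replicate block. *Bok*, a member of the BCL2 family that is abundant in CA3 neurons, had 63.4, 69.9 and 69.4 CPM in WT and 40.9, 48.8 and 45.7 CPM in DM libraries (-0.58, standard error 0.10). *Rbm3*, the cold-shock RNA-binding protein, had 85.7, 90.0 and 86.4 CPM in WT and 71.0, 72.4 and 66.7 CPM in DM libraries (-0.32, standard error 0.06). *Btg3*, an antiproliferative gene, had -0.46 (standard error 0.10), *Wscd2* -0.34 (standard error 0.08), *Adar*, which edits adenosine in double-stranded RNA, -0.20 (standard error 0.05), *Nudt3* -0.23 (standard error 0.06) and *Pfkfb3*, a regulator of glycolysis, -0.25 (standard error 0.07). *Nr4a3*, an activity-induced nuclear receptor, had -0.21 (standard error 0.06). The other 5 of the 15 genes were *Atf4*, *Mthfd2*, *Aldh18a1*, *Chac1* and *Cars*, all known from the amino acid branch of the integrated stress response.

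**Figure D2:**
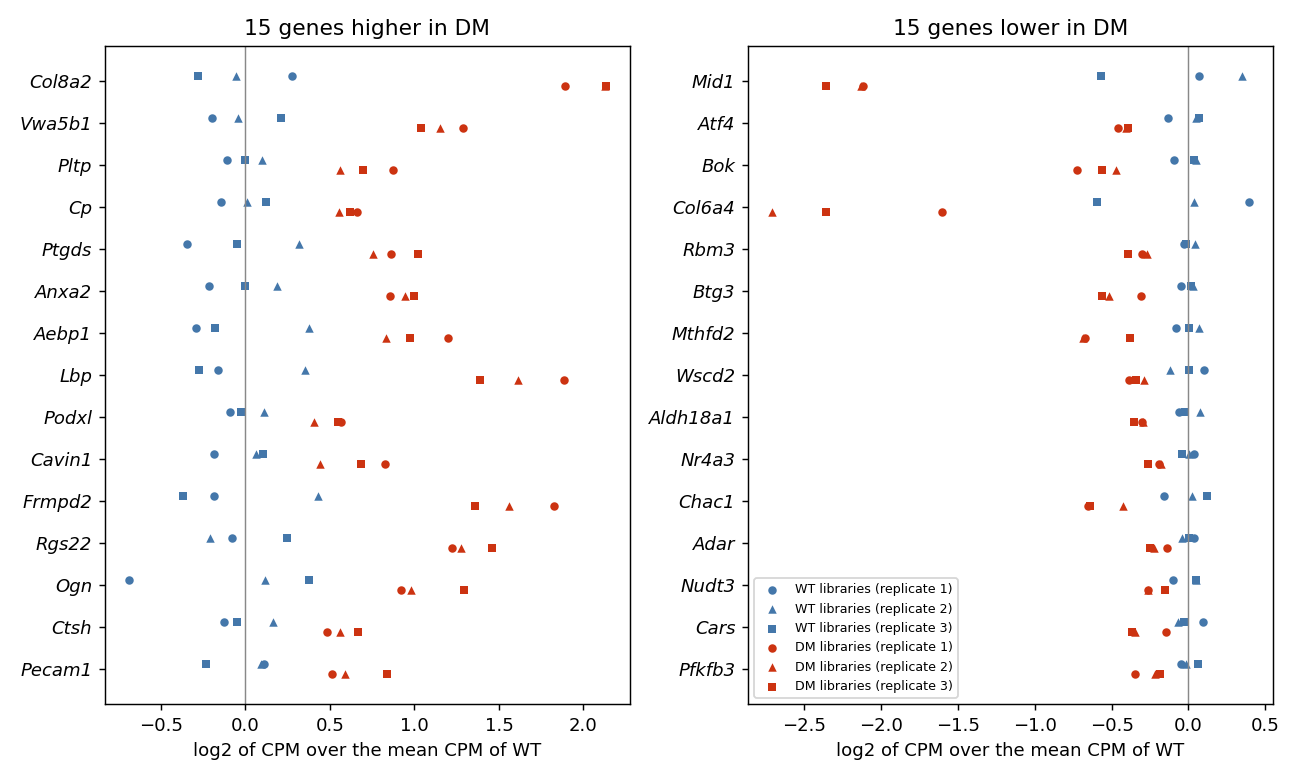
Each row is 1 of the 15 genes higher (left) or lower (right) in DM, and each point is the log2 of a library's CPM over the mean CPM of the 3 WT libraries, with WT in blue, DM in red and the replicate number given by the shape. DM libraries lie apart from WT libraries in every row, as the choice of these genes requires, and *Mid1* and *Col6a4* have the widest gaps on the right.

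The integrated stress response lowers translation in general while raising that of *Atf4*, whose product then switches on genes for amino acid synthesis, import and tRNA charging. Genes of this response were lower in DM mice. Of 25 listed genes 24 were tested, of which 22 had a lower and 2 a higher level, with a median log2 fold change of -0.11 against 0.01 over all genes. At an unadjusted p under 0.05, 8 (33.3%) were lower and 0 higher, where 0.866% of all genes were lower. All DM libraries lay below all WT libraries for 9 of the 24, against 3.14% of all genes. *Atf4* itself had 96.3, 109 and 111 CPM in WT and 76.9, 79.8 and 80.5 CPM in DM libraries, with no overlap and little spread in DM mice. The log2 fold change of *Atf4* was -0.42 (standard error 0.07), and edgeR gave an adjusted p of 0.146 without and 0.0410 with the replicate block.

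*Mthfd2*, a mitochondrial enzyme of folate metabolism, had 7.74, 8.59 and 8.18 CPM in WT and 5.13, 5.07 and 6.27 CPM in DM libraries (-0.57, standard error 0.13). *Chac1*, which breaks down glutathione, had 4.61, 5.24 and 5.59 CPM in WT and 3.27, 3.83 and 3.30 CPM in DM libraries (-0.57, standard error 0.15). *Sesn2*, a stress sensor that restrains mTORC1, had 15.7, 17.1 and 15.3 CPM in WT and 13.5, 12.2 and 13.1 CPM in DM libraries (-0.31, standard error 0.09). Both amino acid transporter genes *Slc7a1* and *Slc7a5* (-0.25 and -0.27, standard errors 0.07 and 0.09) and the folate enzyme gene *Aldh1l2* (-0.31, standard error 0.13) also had all DM libraries below all WT libraries. *Asns*, the asparagine synthetase, had 79.0, 92.2 and 84.6 CPM in WT and 65.8, 77.1 and 78.6 CPM in DM libraries, so that the highest DM value was just under the lowest WT value (-0.21, standard error 0.10). None of the 24 passed when adjusted over all genes. With the block in the model of 6 libraries, chosen after seeing the data, 7 of them passed, all lower, against 0.693% of all genes.

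Members without such a difference were the seryl-tRNA synthetase gene *Sars*, the most abundant of the list in CPM (-0.11, standard error 0.06), *Ddit3*, which encodes the death-linked factor CHOP (0.03, standard error 0.09), and *Ddit4*, an inhibitor of mTORC1 that glucocorticoids also induce (0.13, standard error 0.10). The count of lower members at an unadjusted p under 0.05 was 6 to 9 with any single library of batch 1 left out, 8 with TMM or median-of-ratios scaling and 11 without the 4 libraries high in noncoding RNA. Of the 15 genes outside the list, *Aldh18a1*, which makes the precursor of proline, and *Cars*, the cysteinyl-tRNA synthetase gene, had log2 fold changes of -0.32 and -0.28 (standard errors 0.07 and 0.08).

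ATF4 pairs with C/EBP proteins on an element spelled TGATGNAA, so promoters of the list were searched for these letters on both strands. RefSeq promoter windows of GRCm38.p6, from 250 bases before to 50 after a gene start, were at hand for 20 of the 24 tested members, in 24 windows, since some genes have several starts. The letters were found in 6 windows (25%), against 2.28% of the 14937 windows of all tested genes that were matched by symbol. Since the list was made of genes of this response, a higher share is built into it and says nothing of DM against WT mice. The 6 genes were *Asns*, *Chac1*, *Gars*, *Nupr1*, *Slc7a11* and *Vldlr*, and of these *Asns* and *Chac1* are among the 8 genes lower at an unadjusted p under 0.05. Their windows are shown for this reason, 5′ to 3′ on the strand of the gene, with the matched letters in capitals. The match starts at -193 from the gene start in *Chac1*, on the opposite strand, and at -23 in *Asns*.
Chac1 (chr2:119350992-119351291, + strand): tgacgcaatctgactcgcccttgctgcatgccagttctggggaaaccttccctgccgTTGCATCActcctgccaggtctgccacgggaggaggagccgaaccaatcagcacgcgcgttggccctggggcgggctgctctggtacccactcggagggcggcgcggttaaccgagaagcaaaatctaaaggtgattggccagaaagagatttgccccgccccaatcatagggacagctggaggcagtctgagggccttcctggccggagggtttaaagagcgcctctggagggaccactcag
Asns (chr6:7693160-7693459, - strand): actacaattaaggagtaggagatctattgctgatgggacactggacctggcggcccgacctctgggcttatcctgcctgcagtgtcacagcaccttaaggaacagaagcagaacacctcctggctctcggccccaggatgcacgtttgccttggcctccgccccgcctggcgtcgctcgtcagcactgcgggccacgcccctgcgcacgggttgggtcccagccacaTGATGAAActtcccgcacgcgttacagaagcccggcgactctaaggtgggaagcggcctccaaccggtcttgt
A match of letters is not evidence that a factor was bound.

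**Figure D3:**
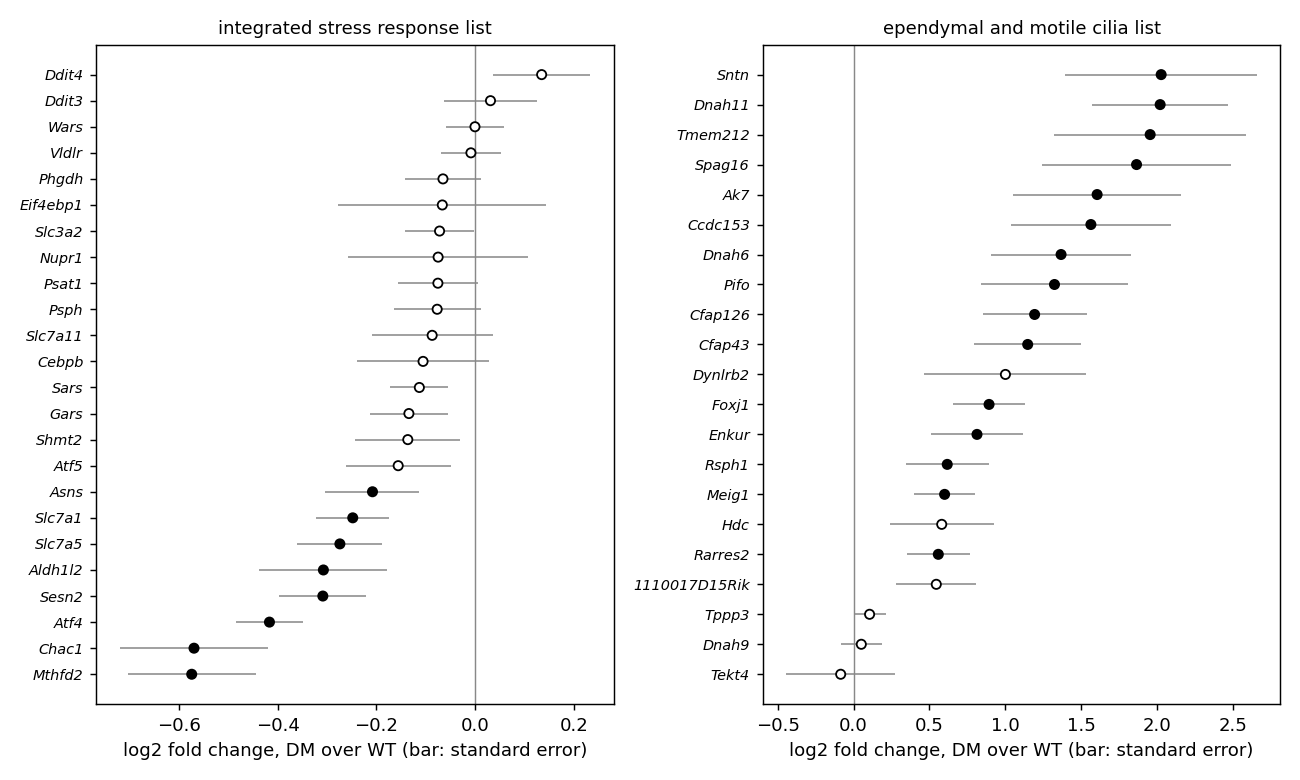
Each point is the log2 fold change of DM over WT of 1 member of the integrated stress response list (left, 24 genes) or of the list of ependymal cells and motile cilia (right, 21 genes), with its standard error as a bar, and filled points have an unadjusted p under 0.05. On the left 22 of 24 points are below 0 and on the right 20 of 21 are above, on axes of different width.

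Immediate early genes, which neurons switch on within minutes of activity, leaned the same way with fewer differences. Of 24 genes 19 had a lower and 5 a higher level, and 3 were lower and 1 higher at an unadjusted p under 0.05. The median log2 fold change was -0.08. *Egr1* had 97.7, 107 and 103 CPM in WT and 91.4, 92.3 and 70.8 CPM in DM libraries (-0.27, standard error 0.11), with DM replicate 3 far below the rest. *Dusp6*, a phosphatase of ERK, had 59.5, 58.7 and 61.1 CPM in WT and 52.2, 47.7 and 51.6 CPM in DM libraries (-0.24, standard error 0.11). *Nr4a3* was the third. *Klf4*, which endothelial cells also express, went the other way (0.58, standard error 0.25), and *Homer1*, the most abundant of the list in CPM, had -0.03 (standard error 0.11). The count of lower members was 1 without WT replicate 2, WT replicate 3 or DM replicate 3, and 5 without APP-TKI replicate 3 or DM replicate 1. It was 6 with the replicate block, and 9 without the 4 libraries high in noncoding RNA, where the median was -0.15.

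Genes of ependymal cells and motile cilia had the highest median of the lists with at least 6 members tested. Of 22 listed genes 21 were tested, and 20 had a higher level. At an unadjusted p under 0.05, 15 (71.4%) were higher and 0 lower, where 3.69% of all genes were higher. All DM libraries lay above all WT libraries for 15 of the 21, against 7.29% of all genes. The median log2 fold change was 1.00. Summed over the list, WT libraries had 78.1, 77.7 and 69.5 CPM and DM libraries 121, 104 and 96.7 CPM, with DM replicate 1 the highest. *Foxj1*, the master regulator of motile cilia, had 3.54, 4.69 and 4.87 CPM in WT and 9.49, 7.25 and 7.58 CPM in DM libraries (0.89, standard error 0.24). *Dnah11*, a heavy chain of axonemal dynein, had 0.753, 1.23 and 0.468 CPM in WT and 3.92, 3.06 and 2.88 CPM in DM libraries (2.02, standard error 0.45). *Cfap43* and *Cfap126*, proteins of the axoneme, had 1.15 and 1.19 (standard errors 0.35 and 0.34), and *Sntn*, a protein of the ciliary tip, had 1 to 10 counts in WT and 26 to 30 in DM libraries. *Dnah9*, the most abundant of the list in CPM, had 0.05 (standard error 0.14), and *Tekt4* was the member with a lower level (-0.08, standard error 0.36).

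None of the 21 passed when adjusted over all genes. With the block in the model of 6 libraries, chosen after seeing the data, 12 passed with a higher level, against 1.92% of all genes. The count of 15 became 11 to 16 with any single library left out and 14 without the 4 libraries high in noncoding RNA, where the median was 0.72. Of 13 tested markers of the choroid plexus, which borders the same ventricle, 9 had a higher level and 2 an unadjusted p under 0.05, with a median of 0.26. The count of 2 was 0 without WT replicate 3 or DM replicate 1 and 4 without WT replicate 2. The median was 0.15 without WT replicate 1, 0.84 without WT replicate 2, 0.11 without WT replicate 3, 0.13 without DM replicate 2 and 0.04 without the 4 libraries high in noncoding RNA, so that no size can be given for this list. *Folr1*, a folate receptor, had 1, 13 and 9 counts in WT and 38, 23 and 27 in DM libraries. *Calml4* showed a log2 fold change of 1.09 (standard error 0.49), and *Trpm3*, the most abundant of the list in CPM, had 0.09 (standard error 0.08). *Ttr*, the plexus product transthyretin, had 4.43, 29.99 and 8.18 CPM in WT and 15.1, 28.4 and 7.80 CPM in DM libraries, with replicate 2 highest in both groups. *Kcne2*, *Aqp1* and *Kcnj13* of this list were under the filter. Whether the amount of ventricular wall in the dissected tissue had a part in these levels was not tested.

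RFX factors act with FOXJ1 on ciliary genes through a box whose half-site reads GTTGCC. These letters, on either strand, were found in 8 of the 23 windows of 17 ependymal genes (34.8%) and in 12.8% of the windows of all tested genes. A pair of windows of genes with no overlap between DM and WT libraries is shown with the half-site in capitals, starting at -66 in *Sntn* and -152 in *Ccdc153*, a ciliary gene whose log2 fold change was 1.56 (standard error 0.53).
Sntn (chr14:13670626-13670925, + strand): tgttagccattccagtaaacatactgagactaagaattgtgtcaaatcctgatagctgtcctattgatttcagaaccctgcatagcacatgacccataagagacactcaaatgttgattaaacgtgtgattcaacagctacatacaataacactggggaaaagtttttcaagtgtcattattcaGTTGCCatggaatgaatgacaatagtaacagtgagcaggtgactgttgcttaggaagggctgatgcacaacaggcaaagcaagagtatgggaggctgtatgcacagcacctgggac
Ccdc153 (chr9:44240427-44240726, + strand): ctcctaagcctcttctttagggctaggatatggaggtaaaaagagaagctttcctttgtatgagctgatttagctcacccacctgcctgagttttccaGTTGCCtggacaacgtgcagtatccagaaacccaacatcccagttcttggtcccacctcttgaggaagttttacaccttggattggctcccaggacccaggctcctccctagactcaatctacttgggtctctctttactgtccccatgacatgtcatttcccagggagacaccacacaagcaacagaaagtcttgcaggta
The half-site is short and common, and its presence was not tested against the change in level. Since the list was made of ependymal and ciliary genes, its higher share says nothing of DM against WT mice.

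Genes of the fibroblasts of meninges and vessels were higher as well. Of 22 listed 19 were tested, 18 had a higher level, 14 (73.7%) had one at an unadjusted p under 0.05 and 0 were lower, with a median log2 fold change of 0.67. Their summed level was 325, 457 and 383 CPM in WT and 598, 563 and 657 CPM in DM libraries, much of it from *Ptgds*. *Crabp2*, which binds retinoic acid, had 0.348, 0.705 and 0.441 CPM in WT and 1.52, 1.05 and 1.60 CPM in DM libraries (1.48, standard error 0.32). *Islr* had 7.68, 8.59 and 7.11 CPM in WT and 12.7, 10.6 and 11.6 CPM in DM libraries (0.58, standard error 0.13), and *Prg4*, the lubricant proteoglycan, showed a log2 fold change of 1.60 (standard error 0.35). *Col1a2*, a chain of type I collagen, had 2.84, 4.6 and 3.80 CPM in WT and 8.66, 5.43 and 7.80 CPM in DM libraries (0.96, standard error 0.21). The member with a lower level was *Pdgfra* (-0.10, standard error 0.11), which oligodendrocyte precursors express as well. The count of 14 became 11 to 15 with any single library left out. With the block in the model of 6 libraries, chosen after seeing the data, 14 of the 19 passed with a higher level, against 1.92% of all genes. In a list of retinoid and prostaglandin genes, 4 of 13 were higher at an unadjusted p under 0.05. Among them were *Ptgds*, *Crabp2* and *Aldh1a2*, genes of the meninges that the fibroblast list already counts. The median of the 13 was 0.08, and -0.03 without WT replicate 1 or without the 4 libraries high in noncoding RNA.

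Of 52 tested genes of collagens and matrix, 38 had a higher level and 8 (15.4%, against 3.69% of all genes) an unadjusted p under 0.05, with 0 lower, and the median was 0.11. The collagen gene *Col6a4*, which was lower (-2.14, standard error 0.37), is not on this list. Without DM replicate 1 the list was split with 28 higher and 24 lower at a median of 0.06, and without the 4 libraries high in noncoding RNA 14 were higher and 2 lower at an unadjusted p under 0.05. Besides *Col8a2*, *Aebp1*, *Ogn* and *Col1a2*, these were *Col23a1* (0.61, standard error 0.15), *Fn1*, which encodes fibronectin (0.32, standard error 0.11), *Hspg2*, which encodes perlecan of basement membranes (0.39, standard error 0.14), and *Fbln5* (0.42, standard error 0.17). *Sparcl1*, the most abundant of the list in CPM and an astrocyte product, was not among them.

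Genes of endothelium and smooth muscle were higher, with medians below those of the ependymal and fibroblast lists. Of 30 endothelial genes 28 had a higher level, 14 (46.7%) of them at an unadjusted p under 0.05, and the median was 0.38. Their summed level was 239, 266 and 271 CPM in WT and 295, 297 and 364 CPM in DM libraries, and the highest was DM replicate 3. *Pecam1* had 5.97, 5.89 and 4.71 CPM in WT and 7.86, 8.32 and 9.88 CPM in DM libraries. *Cdh5*, the cadherin of endothelial junctions, had 2.43, 2.09 and 2.64 CPM in WT and 4.46, 3.47 and 3.90 CPM in DM libraries (0.72, standard error 0.16). *Ptprb*, an endothelial phosphatase, showed a log2 fold change of 0.45 (standard error 0.13), and *Cd34*, the most abundant of the list in CPM, had 0.13 (standard error 0.11). The members with a lower level were *Sox18* (-0.19, standard error 0.18) and *Mfsd2a* (-0.04, standard error 0.17). The count of 14 was 7 without DM replicate 3, where the median was 0.24, and 8 without WT replicate 1.

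Of 9 tested genes of vascular smooth muscle, 9 had a higher level and 5 an unadjusted p under 0.05, or 3 without WT replicate 1, with a median of 0.40. *Acta2*, the smooth muscle actin, had 1.80, 2.58 and 2.97 CPM in WT and 5.41, 4.11 and 5.90 CPM in DM libraries (1.07, standard error 0.27), and *Myh11*, the myosin of contractile cells, had 0.80 (standard error 0.20). *Tpm2* and *Mylk* had 0.59 and 0.23 (standard errors 0.15 and 0.08). In the pericyte list, 10 of 12 had a higher level and 2 an unadjusted p under 0.05, *Anpep* and *Vtn*, with a median of 0.16, or 0.08 without the 4 libraries high in noncoding RNA. *Pdgfrb*, the receptor that defines pericytes, had 13.9, 14.0 and 16.4 CPM in WT and 13.5, 13.4 and 12.7 CPM in DM libraries (-0.16, standard error 0.11), so that all DM libraries were below all WT libraries. *Rgs5*, the most abundant of the list in CPM, had 0.21 (standard error 0.16).

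Of 27 tested genes of angiogenic signalling 7 (25.9%) were higher at an unadjusted p under 0.05, led by the guidance receptor *Robo4* (0.81, standard error 0.25) and *Tgfbr2* (0.38, standard error 0.12), and there were 4 of them without WT replicate 3, DM replicate 1, DM replicate 3 or the 4 libraries high in noncoding RNA. The median of 0.19 was 0.11 without WT replicate 3 or DM replicate 1 and 0.09 without DM replicate 3. All 7 genes of caveolae had a higher level, 2 with an unadjusted p under 0.05, *Cavin1* and *Pacsin2*, or 4 with the replicate block. Of 7 tested genes of the plasminogen system 3 (42.9%) were higher, *Anxa2*, *Thbd*, which encodes thrombomodulin (0.81, standard error 0.18), and *Plau*, the urokinase (0.48, standard error 0.19). *S100a10*, the partner of *Anxa2* in plasminogen binding, had 0.07 (standard error 0.10). Of 24 genes of the blood-brain barrier 5 (20.8%) were higher and 1 lower. *Slc2a1*, the glucose transporter, had 31.5, 39.3 and 39.2 CPM in WT and 42.1, 45.3 and 48.3 CPM in DM libraries (0.30, standard error 0.10), and the lower gene was *Slc7a5* of the stress response list. The count of 5 was 1 without WT replicate 1 or DM replicate 3, and 3 without WT replicate 3 or DM replicate 1 or with TMM or median-of-ratios scaling.

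**Figure D4:**
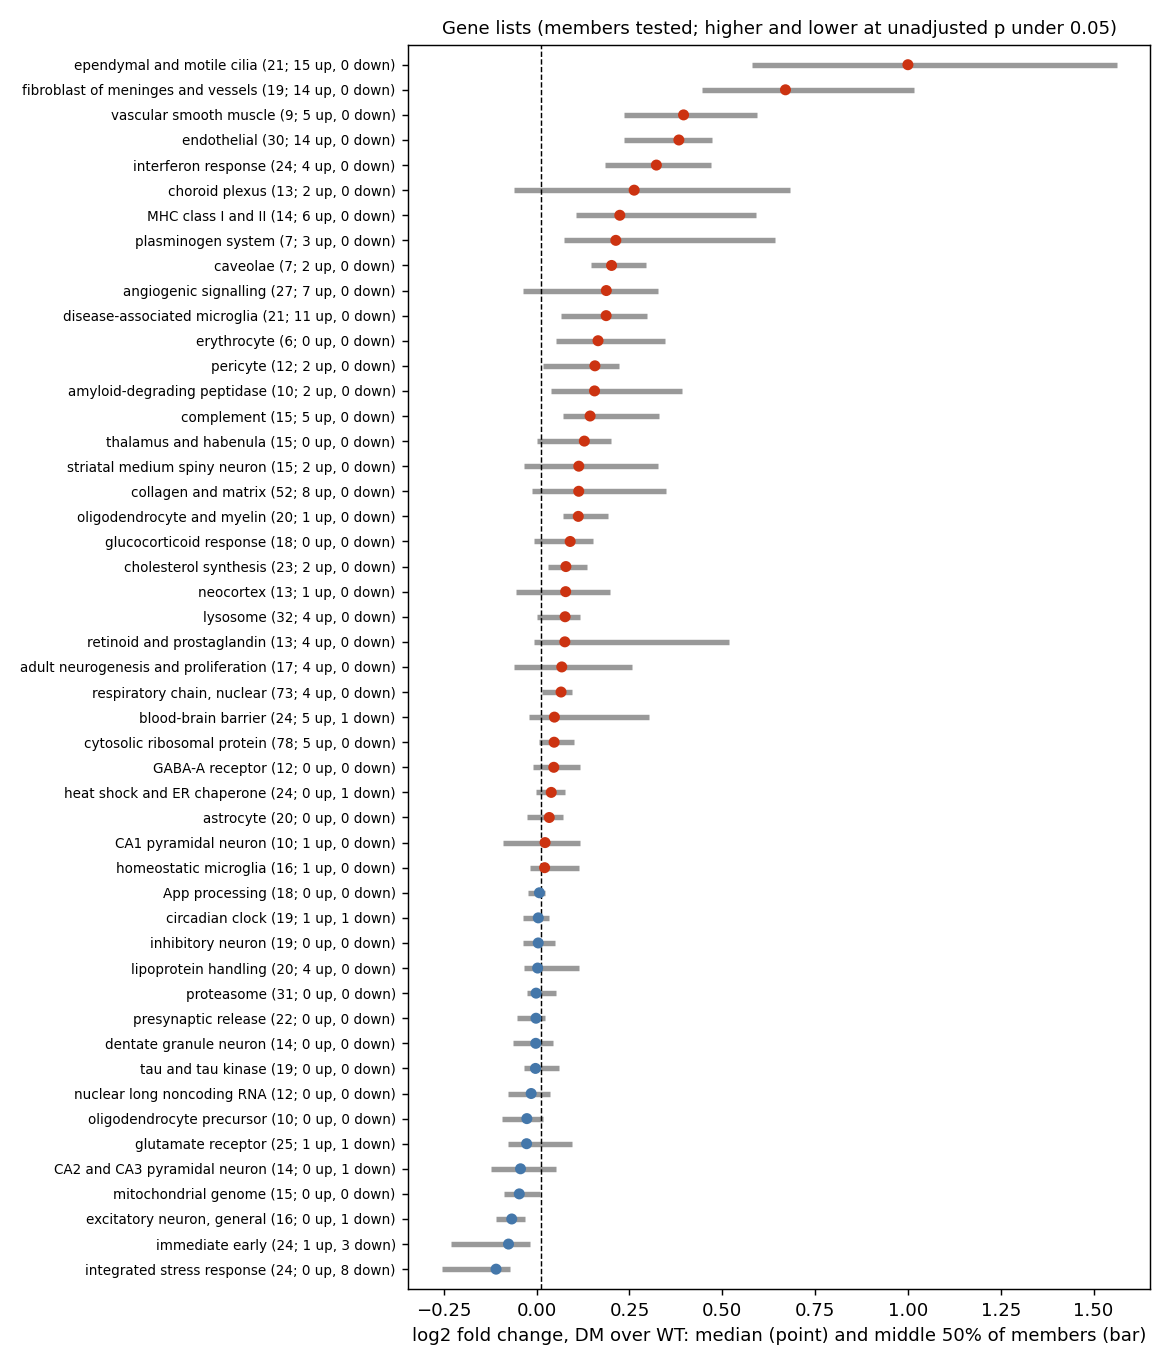
Each row is a gene list with at least 6 tested members, with the median log2 fold change of DM over WT (point), the middle 50% of the members (bar) and, in brackets, the members tested and those higher and lower at an unadjusted p under 0.05. The dashed line is the median of all genes (0.01), red points lie above it and blue points below, and the ends of the order are the ependymal list (1.00) and the integrated stress response (-0.11).

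Many genes that microglia raise at plaques had a higher level, and the difference from the list of resting microglia was not tested. Of 25 listed genes of disease-associated microglia 21 were tested, since *Cst7*, *Itgax*, *Ccl3* and *Clec7a* were under the filter. *Cst7* had 1 to 6 counts in WT and 24 to 38 in DM libraries, and *Clec7a* 4 to 10 and 26 to 32. *Itgax* had 3 to 5 and 10 to 33, and *Ccl3* 2 to 5 and 10 to 12. These low counts were not tested. Of the 21 tested genes 16 had a higher level, 11 (52.4%) at an unadjusted p under 0.05, and 0 were lower at that p, with a median of 0.19. *Ccl6*, a chemokine, had 1.62, 1.72 and 1.46 CPM in WT and 3.38, 2.87 and 3.70 CPM in DM libraries (1.05, standard error 0.23). *Lyz2*, which encodes lysozyme, had 5.24, 5.49 and 5.84 CPM in WT and 7.97, 6.81 and 8.32 CPM in DM libraries (0.48, standard error 0.12). The cathepsin genes *Ctsz* and *Ctsd* had 0.32 and 0.22 (standard errors 0.08 and 0.06), *Tyrobp*, the adaptor of TREM2, 0.30 (standard error 0.11), *Trem2* 0.27 (standard error 0.10) and *Spp1*, which encodes osteopontin, 0.72 (standard error 0.28). *Fth1*, the most abundant of the list in CPM, had -0.02 (standard error 0.08), and with it the summed level overlapped between WT (2542, 2935 and 2962 CPM) and DM libraries (2892, 2909 and 2882 CPM). The count of 11 was 5 without WT replicate 1 and 7 without DM replicate 1.

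Of 16 genes of homeostatic microglia, 10 had a higher and 6 a lower level, and *Fcrls* (0.22, standard error 0.08) had an unadjusted p under 0.05. *P2ry12*, the purinergic receptor of resting microglia, had 38.2, 39.1 and 42.4 CPM in WT and 37.3, 38.3 and 42.8 CPM in DM libraries, and *Tmem119* showed a log2 fold change of -0.12 (standard error 0.10). Of perivascular macrophage genes 4 of 9 were tested, and *Mrc1*, the mannose receptor, had 0.45 (standard error 0.18). *Lyve1*, *Pf4*, *Cbr2*, *Ms4a7* and *Clec10a* were under the filter.

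Among genes of complement 13 of 15 had a higher level, 5 at an unadjusted p under 0.05. *Serping1*, the C1 inhibitor, had 4.72, 3.89 and 3.88 CPM in WT and 6.68, 6.37 and 5.90 CPM in DM libraries (0.60, standard error 0.13). It is an inhibitor of the cascade that cells of vessels and meninges also make. *C1qc*, a chain of its first component, had 0.18 (standard error 0.06), *C3* had 10 to 25 counts in WT and 35 to 44 in DM libraries, and *C1qa*, the most abundant of the list in CPM, had 0.16 (standard error 0.07). The count of 5 was 3 without WT replicate 1, DM replicate 1, DM replicate 3 or the 4 libraries high in noncoding RNA.

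Of 14 tested genes of MHC class I and II, 13 had a higher level and 6 an unadjusted p under 0.05, with a median of 0.22. *B2m*, the light chain of class I, had 52.9, 56.5 and 56.4 CPM in WT and 59.7, 62.0 and 67.1 CPM in DM libraries (0.19, standard error 0.08). *H2-Q4* and *H2-T23*, class I genes with close copies, had 0.75 and 0.38 (standard errors 0.22 and 0.14), and *H2-D1* had 0.22 (standard error 0.09). The count of 6 was 1 without WT replicate 2, 3 without WT replicate 3 and 2 without DM replicate 1. Of 24 interferon-induced genes 21 had a higher level at a median of 0.32, but 4 had an unadjusted p under 0.05. *Ifit1* had 1.25, 1.17 and 1.76 CPM in WT and 3.40, 2.12 and 1.94 CPM in DM libraries, and DM replicate 1 was the highest. *Ifit3*, *Ifitm3* and *Gbp3* had 0.47, 0.34 and 0.45 (standard errors 0.20, 0.15 and 0.21), and *Ifi27*, the most abundant of the list in CPM, had -0.05 (standard error 0.07). The count of 4 was 1 without WT replicate 1, DM replicate 1 or the 4 libraries high in noncoding RNA, and 2 with TMM or median-of-ratios scaling. Without those 4 libraries 17 of the 24 had a higher level and the median was 0.16. Of 32 lysosomal genes 24 had a higher level and 4, all cathepsins (*Ctsh*, *Ctsz*, *Ctsd* and *Ctsl*), had an unadjusted p under 0.05.

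**Figure D5:**
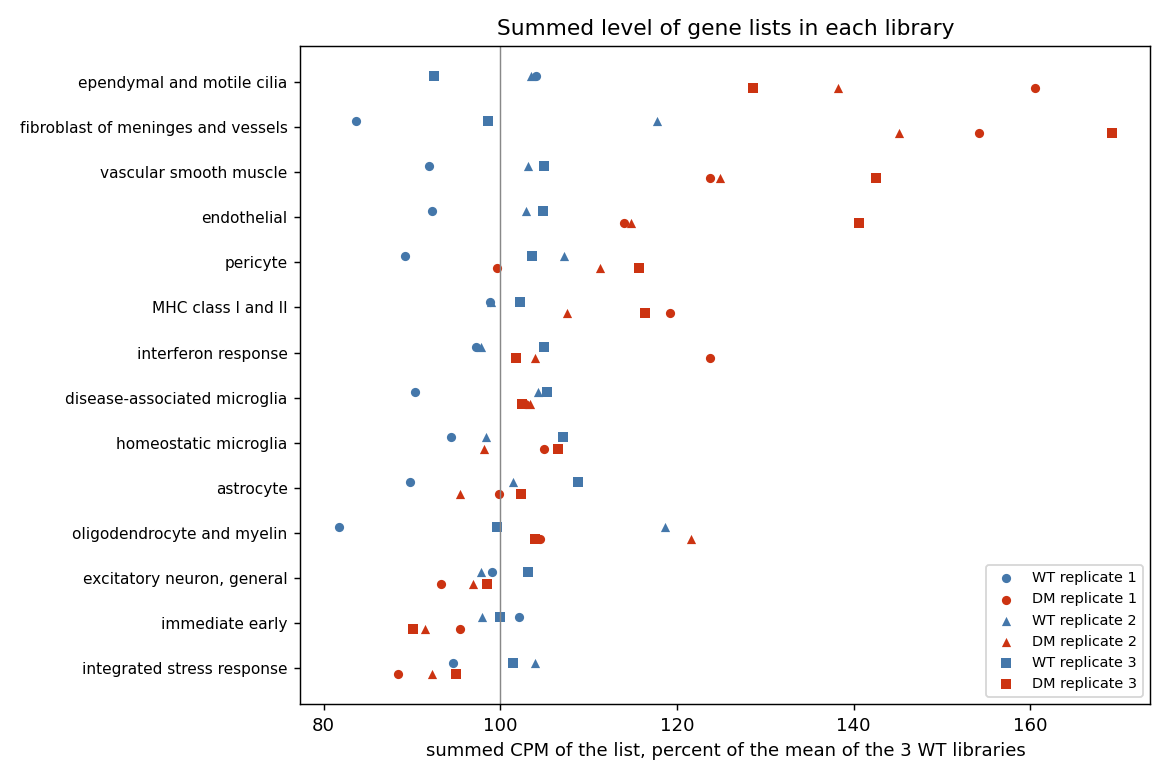
Each point is the summed CPM of a gene list in 1 library as a percent of the mean of the 3 WT libraries, with WT in blue, DM in red and the replicate number given by the shape. DM libraries lie above all WT libraries for the ependymal, fibroblast, smooth muscle, endothelial and MHC lists, below them for immediate early genes, and overlap with them for microglia, astrocytes, oligodendrocytes, excitatory neurons and the integrated stress response.

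Lists of the main cells of the hippocampus held few genes past the threshold. Counts of 1 or 2 members of a list ranged from 0 to 5 with 1 library left out, and nothing rests on them. Of 16 genes of excitatory neurons 14 had a lower level, with a median of -0.07, and *Grin2b*, a subunit of the NMDA receptor, had 859, 819 and 832 CPM in WT and 753, 775 and 767 CPM in DM libraries (-0.13, standard error 0.06). *Camk2a*, the most abundant of the list in CPM, had -0.10 (standard error 0.08). After TMM or median-of-ratios scaling 16 of the 16 were lower, and without the 4 libraries high in noncoding RNA 4 had an unadjusted p under 0.05. Of 10 genes of CA1 neurons 1 was higher (*Ccn3*, 0.28, standard error 0.12), of 14 of CA2 and CA3 neurons 1 was lower (*Bok*), and of 14 of dentate granule neurons and 19 of inhibitory neurons 0 had an unadjusted p under 0.05. The same held for 20 astrocyte genes, with *Gfap* at 0.07 (standard error 0.07) and *Slc1a2*, the glutamate transporter, at -0.08 (standard error 0.07), and for 10 genes of oligodendrocyte precursors. Without the 4 libraries high in noncoding RNA, however, 16 of the 20 astrocyte genes had a lower level, 5 of them at an unadjusted p under 0.05, as did 3 of the 10 precursor genes. Of 20 genes of oligodendrocytes 17 had a higher level at a median of 0.11, which was 0.02 without WT replicate 1, 0.25 without WT replicate 2, 0.04 without DM replicate 2 and 0.06 without the 4 libraries high in noncoding RNA. *Trf*, which encodes transferrin, had an unadjusted p under 0.05 (0.31, standard error 0.14). *Mbp*, the myelin basic protein, had 1630, 2358 and 2068 CPM in WT and 1984, 2424 and 2112 CPM in DM libraries, with WT replicate 1 the lowest.

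Of 73 genes of the respiratory chain in the nucleus 63 had a higher level, at a median of 0.07, and of 78 genes of cytosolic ribosomal proteins 64, with a median of 0.05. Over all tested genes the share with a higher level was 54.9%. At an unadjusted p under 0.05, 4 (5.48%) and 5 (6.41%) were higher, near the 3.69% of all genes, led by *Atp5j2* (0.22, standard error 0.07) and *Rpl19* (0.21, standard error 0.08). With median-of-ratios scaling 53 and 53 had a higher level, the medians were 0.05 and 0.03, and 2 and 0 had an unadjusted p under 0.05. Without WT replicate 1 the ribosomal list was split with 39 higher and 39 lower, without DM replicate 1 the counts were 15 and 14, and without the 4 libraries high in noncoding RNA they were 21 and 18. Of 15 genes of the mitochondrial genome 11 had a lower level and 0 an unadjusted p under 0.05. Outside this list, 2 of 6 tested mitochondrial tRNA genes were lower at that p, with all DM libraries below all WT libraries.

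The RNA levels of the knocked-in genes overlapped between the groups. *App* had 1312, 1436 and 1404 CPM in WT and 1268, 1394 and 1343 CPM in DM libraries, a log2 fold change of -0.05 (standard error 0.06). *Apoe*, whose row holds mouse and human transcripts together and so does not check the genotype, had 1413, 1478 and 1606 CPM in WT and 1596, 1468 and 1702 CPM in DM libraries (0.08, standard error 0.08). Within 5 Mb of *App*, 0 of 19 other tested genes had an unadjusted p under 0.05. Within 5 Mb of *Apoe* 2 of 96 did, *Bcam* (0.43, standard error 0.14) and *Gpr4* (0.70, standard error 0.25), both higher. Over all genes 3.69% were higher and 0.866% lower at this p, so that neither count stands out.

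Of 18 genes of App processing, secretases included, 0 had an unadjusted p under 0.05, as did 0 of 19 of tau and its kinases. For 1 of the 18 all DM libraries lay above all WT libraries, and for 1 below. Over all genes these shares were 7.29% and 3.14%, so that neither count stands out. With the block in the model of 6 libraries, chosen after seeing the data, 1 of the 18 passed with a higher level, against 1.92% of all genes. *Bace2* of this list had 106, 106 and 75 counts in WT and 196, 177 and 133 in DM libraries. Of 10 tested peptidases that degrade Aβ 2 (20%, against 3.69% of all genes) were higher, *Ace*, the angiotensin-converting enzyme (0.43, standard error 0.14), and *Mme*, which encodes neprilysin (0.30, standard error 0.13). Of 20 genes of lipoprotein handling 10 had a higher and 10 a lower level, and 4 (20%) were higher at an unadjusted p under 0.05, *Pltp*, *Lrp2*, which encodes megalin (0.74, standard error 0.19), *Apod* (0.38, standard error 0.11) and *Lcat* (0.21, standard error 0.09). Of 23 genes of cholesterol synthesis 21 had a higher level at a median of 0.08, and 2 had an unadjusted p under 0.05, *Insig1* and *Nsdhl* (0.18 and 0.21, standard errors 0.08 and 0.10), or 5 without WT replicate 2 and 4 with the replicate block. The study names 16 vascular, microglial and ribosomal genes for DM mice. It took the vascular and ribosomal ones from DM against APP-TKI mice, and gave the microglial ones as higher in both DM and APP-TKI mice. Against WT mice, all 16 had a higher level here at an unadjusted p under 0.05. Since they were picked on these libraries, this count is no independent evidence. Without WT replicate 1 it was 9 and without DM replicate 3 it was 10.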

How the data were processed

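Polyadenylated RNA of whole hippocampi was sequenced by the authors from directional libraries with paired-end reads. The authors deposited raw counts of reads for each gene. Per the labels and methods, the authors trimmed reads with Trimmomatic 0.39, used STAR 2.7.1a for alignment to a mouse genome that held human *APOE*, and counted them with HTSeq 0.11.2. Whether counting used strand is not given in the sources at hand, so counts of overlapping genes and of close copies are uncertain. The filter, scaling by the upper quartile and tests of the authors, in R 4.0.2 and edgeR, are not part of the deposited counts.

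Here genes with over 1 CPM in at least 3 libraries were kept, and DM was compared with WT by the quasi-likelihood test of edgeR 4.0.16 (R 4.3.3), with upper quartile scaling, the 9 libraries of batch 1 in the model and a threshold of 0.1 on the p adjusted after Benjamini-Hochberg across the tested genes. CPM values were scaled in the same way, and a standard error is the absolute log2 fold change over the square root of the F statistic. An exact permutation test of 3 against 3 libraries cannot go below p = 0.1, so none was used for single genes. Other libraries of the same group differed by more than counting noise (chi-square per degree of freedom 4.96 to 22.8), and each was taken as 1 sample. Symbols, biotypes and GRCm38 positions were matched for 55230 of the 55471 gene IDs in GENCODE, in another release than that of the authors. In the replicate block, and not in the main model, same-numbered DM and WT libraries were taken as pairs. Their deviations from the group means correlated above 0.1 in all 3 pairs. This does not single out these pairs, since WT replicate 3 with DM replicate 2 (0.15) and WT replicate 2 with DM replicate 3 (0.19) were above 0.1 too. The pairing comes from the counts and not from the labels.

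The genes named are those called, the 15 higher and 15 lower protein-coding genes with the smallest p among those with a mean over 1 CPM and no overlap between libraries, up to 4 members of each list with the smallest p and its most abundant member, genes named in the study with *App* and *Apoe*, and, beside counts of 5 or fewer, the member with the largest fold against its list's direction. *Ttr*, *P2ry12*, *Tmem119*, *Gfap*, *Mbp*, *S100a10*, *Pdgfrb*, *Ddit3*, *Ccdc153*, the promoter examples, other members of small counts and the neighbours of *Mid1*, *Col8a2* and *Apoe* were added with their values known. The comparison, the lists (52, with 1007 symbols) and the rules were chosen with earlier results of these data known. Some genes that the rule names are not reported here. Lists are described by counts and medians, with no test of the list. Promoters came from RefSeq. DESeq2 1.42.0 and matplotlib 3.10.9 served for an alternative test and for plots. Alternatives were other tests, scalings, filters, a threshold of 0.05, sets of libraries, the replicate block and each library left out.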

Additional observations from a re-analysis of the deposited data

How the results depend on the processing

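None of the alternatives turned the direction of *Mid1* or *Col8a2*, whose log2 fold changes were -2.41 to -1.98 and 1.92 to 2.21 with 1 library left out. The 2 genes called by edgeR's quasi-likelihood test became 136 with its robust likelihood ratio test, 95 with robust tagwise dispersions, 50 with the Wald test of DESeq2, 179 with no filter, 30 with only the DM and WT libraries, 1 with all 15 libraries, and 1 to 29 with 1 library left out (29 without APP-TKI replicate 2). The replicate block gave 11 called genes and 216 lower genes at an unadjusted p under 0.05 in place of 140, and moved no other of these counts by over 1.5 times. Higher genes at that p were 1033 and lower ones 419 with no filter, lower ones were 222 with median-of-ratios scaling, and with 1 library left out there were 410 to 673 higher and 97 (without WT replicate 3) to 310 (without DM replicate 1) lower. Genes with all DM libraries below all WT libraries were 786 with median-of-ratios scaling and 1158 with no filter in place of 508. With 1 DM or WT library left out they were 906 to 1858, and those above 1802 to 2778, where fewer libraries make separation easier. Of settings chosen after seeing the data, the replicate block with only the DM and WT libraries gave 422 called, 1456 higher and 834 lower genes, and leaving out the 4 libraries high in noncoding RNA gave 131 called, 1026 higher, 584 lower, 3685 above and 2753 below. Without those 4 libraries only replicates 2 and 3 of DM and WT are compared, so that separation is easier there too. The cause was not tested. Genes of few counts have wide errors at this depth.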

Other observations

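Other groups of genes gave single members. Of 17 tested genes of adult neurogenesis and proliferation 4 were higher at an unadjusted p under 0.05. *Cd24a*, a surface protein of neuroblasts and ependymal cells, had 7.42, 7.64 and 6.61 CPM in WT and 12.8, 13.1 and 11.3 CPM in DM libraries, a log2 fold change of 0.78 (standard error 0.20). *Nes*, *Hopx* and *Prc1* had 0.43, 0.26 and 0.50 (standard errors 0.15, 0.10 and 0.22). Leaving out WT replicate 1 gave 2, and leaving out WT replicate 3 gave 1. Of 24 heat shock and chaperone genes *Hspa1a* was lower (-0.35, standard error 0.15), and of 19 clock genes *Npas2* was higher (0.29, standard error 0.09) and *Bhlhe40* lower (-0.25, standard error 0.09). Among 25 glutamate receptor genes *Grm2* was higher (0.19, standard error 0.08) and *Grin2b* lower. Genes of the glucocorticoid response (18), the proteasome (31), presynaptic release (22), GABA-A receptors (12) and nuclear long noncoding RNA (12) had 0 members with an unadjusted p under 0.05 in edgeR's quasi-likelihood test.

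Lists of markers of other brain regions, the pituitary and blood were described as well. Of 15 striatal genes 2 were higher, *Drd1*, the dopamine receptor, with 4.32, 5.34 and 3.94 CPM in WT and 7.79, 5.93 and 5.87 CPM in DM libraries, and *Scn4b* (0.30, standard error 0.13). Their summed level was 220 to 232 CPM in WT and 230 to 232 CPM in DM libraries. Of 15 genes of thalamus and habenula 0 had an unadjusted p under 0.05, or 4 without WT replicate 2, and of 13 neocortical genes *Ccn2* did (0.64, standard error 0.29). Growth hormone (*Gh*) had 0 to 1 counts in WT and 3 to 16 counts in DM libraries. The study left it out of its DEGs as a gene that changes over the estrus cycle, and the part of the cycle in these counts was not tested. Of 6 erythrocyte genes 0 had an unadjusted p under 0.05. Whether dissection had a part in the levels of ependymal, meningeal or vascular genes was not tested.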
